A study of Arabidopsis thaliana with 14 samples.

Results

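The comparison set whole seedlings of the Arabidopsis thaliana mutant csn5a-1 against Columbia wild type seedlings, on 6 of the 14 Affymetrix arrays of the series. Its members were the 3 arrays titled Csn5a-1 and the 3 titled Columbia, chosen by title and fitted without the other arrays. The labels name the replicates of both groups biological. All 6 samples were 12 days old, grown on agar plates with MS salts under 16 h of white light and 8 h of darkness, and harvested without any added treatment. The labels name the mutant by its allele alone, in seedlings described as light grown, and the study's title places it among mutants of the CSN.

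The CSN, or COP9 signalosome, is a nuclear protein complex conserved between plants and animals. Its catalytic subunit, CSN5, removes the ubiquitin-like protein RUB (NEDD8 in animals) from cullins, the scaffolds of a large class of ubiquitin ligases, and so keeps these ligases cycling between active and inactive states. In Arabidopsis CSN5 is encoded by CSN5A and by a paralogue, CSN5B, and csn5a-1 is a T-DNA insertion allele of CSN5A. Loss of CSN5A is known for dwarfed, light-sensitive growth and for altered responses to auxin, jasmonate and other hormones whose receptors are parts of cullin ligases.

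The measured quantity was the log2 RMA level of each probe set, a level that can be set against the same probe set on another array but not against another probe set. A change is the csn5a-1 mean minus the Columbia mean on that scale, so that a change of 1 is 2-fold, and it is given with its standard error from limma over 3 arrays a group. Adjusted p-values are those of limma after Benjamini-Hochberg adjustment over 22746 probe sets, and rose, fell and changed are used of genes with an adjusted p under 0.05. Levels are given for replicates 1, 2 and 3 of a group in that order. The lowest 25% of all levels ended at 3.62, and since detection calls were not used here, a level in that range was not separated from array background and no fold is given for a group mean within it.

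The arrays separated by genotype. Correlations over all probe sets were between 0.9887 and 0.9954 among the Columbia arrays, between 0.9838 and 0.9961 among the csn5a-1 arrays and between 0.9333 and 0.9555 across the groups. One mutant array stood apart: csn5a-1 replicate 1 lay at least 2-fold above the mean of the other csn5a-1 arrays in 581 probe sets. The same count was 16 and 14 for the other mutant arrays and at most 94 for a Columbia array, each against the mean of the others of its group. The difference between the 3′ and 5′ actin controls on the log2 scale, a measure of RNA integrity and labelling, was 3.35, 3.67 and 3.59 in Columbia and 4.95, 4.56 and 3.93 in csn5a-1, so the groups did not overlap in it. The same difference for the GAPDH controls was 1.24, 1.34 and 1.67 in Columbia and 1.67, 1.29 and 1.43 in csn5a-1, and there the groups overlapped. The part of the actin difference in the gene results below was not tested. CSN5A itself had no probe set assigned to it alone, so the level of the mutated gene could not be read here. The annotation gave no gene for 8730 probe sets and several genes for 503, and whether any of them reads CSN5A was not tested.

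Leaf and root genes read in the upper part of the range in every sample. RCA, the activase of the carbon-fixing enzyme Rubisco, read 13.79, 13.81 and 13.79 in Columbia and 13.56, 13.58 and 13.63 in csn5a-1, and PYK10, an abundant root beta-glucosidase, read between 11.65 and 12.00 on all 6 arrays. The measured flower marker, AT5G07230, stayed between 2.90 and 3.21. None of the 2 measured mesophyll markers, 2 trichome markers and 3 guard cell markers passed the test. Of 2 root hair markers the expansin gene EXPA7 rose by 0.70 ± 0.21 (SE; limma adjusted p = 0.0394), with an adjusted p of 0.0809 to 0.117 when an array other than csn5a-1 replicate 2 was left out. Of 4 measured leaf polarity and meristem markers YAB5, a YABBY factor of the lower leaf side, rose by 1.24 ± 0.13 (SE; adjusted p = 0.000471). YAB3, of the same family, fell by 0.55 ± 0.16 (SE; adjusted p = 0.0334), with an adjusted p of 0.0547 to 0.0955 when an array other than csn5a-1 replicate 3 was left out. In whole seedlings a smaller share of cells of a type and less RNA per cell cannot be told apart, which holds for all results that follow.

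The mutant differed from wild type over much of the transcriptome, in near equal numbers each way. Of 22746 probe sets 7474 passed the test, 32.9%, of which 3649 were higher in csn5a-1 (16.0%) and 3825 lower (16.8%). The median change over all probe sets was -0.04. A change of at least 2-fold besides was found for 1326 probe sets higher (5.83%) and 1291 lower (5.68%), at least 4-fold for 310 and 327, at least 8-fold for 89 and 113, and at least 16-fold for 23 and 37. The lower side thus held more of the largest changes. With 1 probe set for each of 13286 loci, 30.5% passed, 15.0% higher and 15.5% lower, and the counts of gene groups given later are to be read against these shares. At least 2-fold changes were found for 10.2% of loci, 5.26% higher and 4.96% lower. The levels of the 2 groups did not overlap in 48.8% of probe sets and 46.7% of loci. The median SE was 0.14, and the median 95% interval of a change reached 0.32 to either side.

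**Figure D1:**
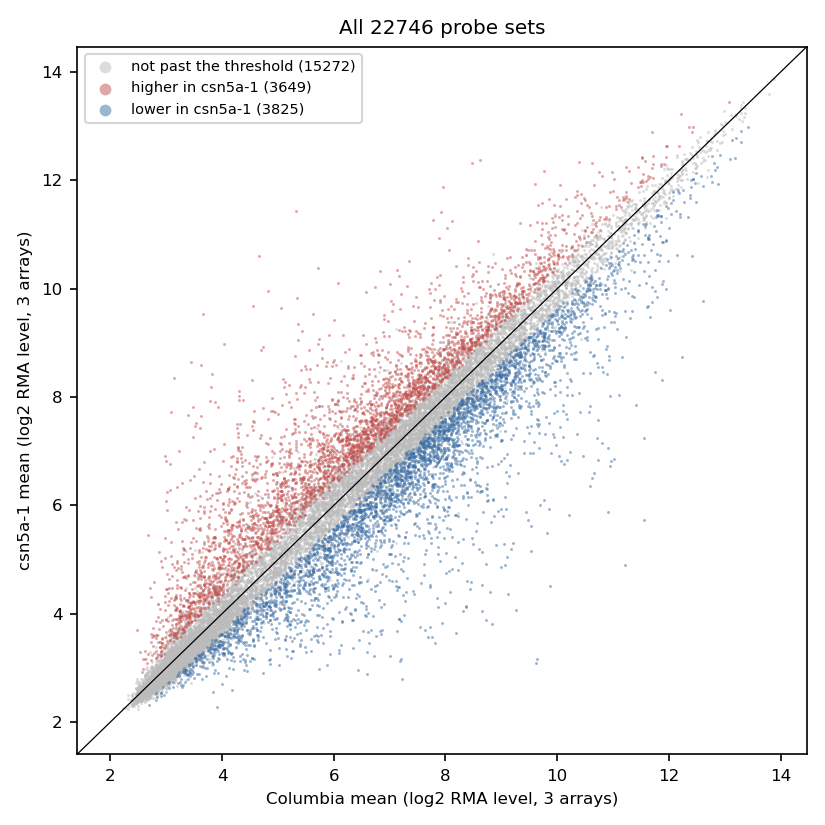
Mean log2 RMA level over 3 csn5a-1 arrays (vertical axis) against that over 3 Columbia arrays (horizontal axis) for all 22746 probe sets, with the line of equality. The 3649 probe sets higher in csn5a-1 and the 3825 lower ones lie on both sides over the whole range of levels, and some lower ones fall from above 9 to below 4.

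Secreted antimicrobial peptide genes changed in both directions and by large amounts. Plant defensins are small cysteine-rich proteins of the cell wall space, and those of the PDF1.2 type are induced by jasmonate together with ethylene. PDF1.2 read 5.01, 4.60 and 4.05 in Columbia and 9.26, 9.84 and 9.95 in csn5a-1. All mutant arrays lay far above all wild type arrays, a rise of 5.13 ± 0.27 (SE; adjusted p = 2.21e-05) or 35.0-fold. PDF1.2b rose from 7.37, 6.68 and 6.99 to 9.43, 10.75 and 10.07, and PDF1.4 from 6.49, 6.15 and 5.44 to 7.97, 7.87 and 7.76. It was not tested whether the probe set of PDF1.2b also reads the PDF1.2 transcript. The rises of PDF1.2 and PDF1.2b were thus not shown to be independent. PDF2.5 rose by 2.20 ± 0.26 (SE; adjusted p = 0.000767). The fifth measured defensin gene of this name went the other way: PDF2.1 read 9.18, 9.02 and 9.12 in Columbia and 6.60, 6.77 and 5.87 in csn5a-1, with an adjusted p of 0.000149. Of the 5 measured loci with a PDF symbol, 4 rose and 1 fell, with a median change of 2.20. This group was formed by symbol after the values were seen, and defensin genes under other symbols are not in its count.

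Of 8 measured defensin-like LCR genes 1 rose and 1 fell, 12.5% each, beside 15.0% and 15.5% of all loci. LCR67 read 9.41, 8.72 and 9.66 in Columbia and 4.08, 4.04 and 4.08 in csn5a-1, 36.7-fold lower (adjusted p = 1.11e-05), whereas LCR69 rose from 10.99, 10.76 and 10.65 to 12.26, 12.06 and 11.92 (adjusted p = 0.000466). The other 6 of 8 measured LCR genes did not pass the test, and a second one rose without Columbia replicate 1. THI2.1 encodes a thionin, a membrane-active peptide that jasmonate also induces. It read 9.87, 9.36 and 9.68 in wild type and 2.93, 3.36 and 3.23 in the mutant, a fall of -6.46 ± 0.17 (SE; adjusted p = 4.16e-06) that brought all csn5a-1 arrays into the lowest 25% of levels. AT2G15010, named by its locus alone, went from 8.41, 8.64 and 9.14 to 3.88, 3.81 and 3.98. Of 5 measured members of the jasmonate list 3 rose and 1 fell. This count holds both PDF1.2 and PDF1.2b, whose rises were not shown to be independent. Besides PDF1.2, PDF1.2b and THI2.1 the list held OPCL1, an enzyme of jasmonate synthesis. OPCL1 rose by 0.98 ± 0.28 (SE; adjusted p = 0.0309) and had an adjusted p of 0.0561 to 0.0907 when a Columbia array was left out.

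**Figure D2:**
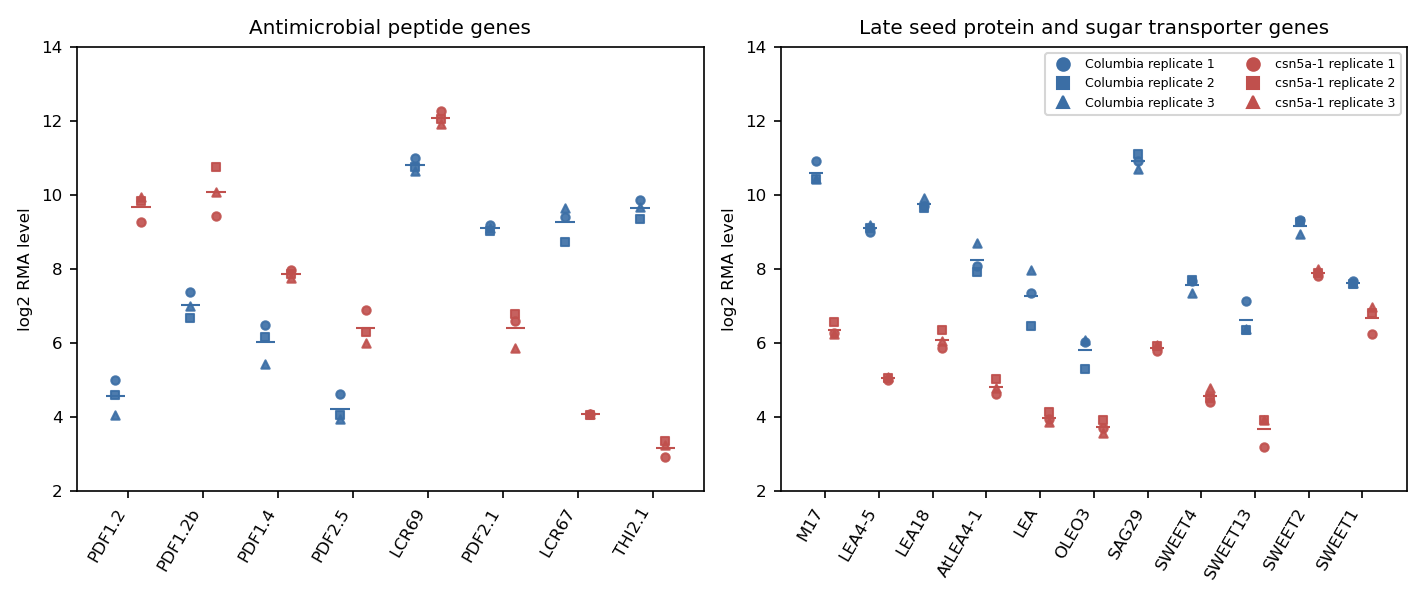
Log2 RMA level of 8 antimicrobial peptide genes (left) and 11 late seed protein and sugar transporter genes (right) on each array. Symbols mark replicates 1, 2 and 3, blue is Columbia, red is csn5a-1 and short lines are group means; the groups do not overlap for any gene drawn, PDF1.2 rises above 9 and THI2.1 falls to about 3.

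The few measured genes of the list on salicylate and immunity were higher. CSA1, an intracellular receptor of the TIR-NB-LRR class, read 3.80, 3.57 and 3.68 in Columbia and 7.08, 6.72 and 6.59 in csn5a-1 (8.69-fold; adjusted p = 1.46e-05). WRKY53, a transcription factor of defence and leaf senescence, rose by 1.23 ± 0.18 (SE; adjusted p = 0.00180), and SAG101, a partner of the immune regulator EDS1, rose by 1.49 ± 0.33 (SE; adjusted p = 0.0123). These were the 3 measured members of that list, on which 33 genes were written. RING1 and ECS1 were named for the size of their change. RING1, a ubiquitin ligase of programmed cell death, read 5.98, 5.98 and 5.16 in wild type and 9.12, 9.04 and 8.79 in the mutant. The cell wall protein gene ECS1 rose from 9.39, 8.61 and 7.43 to 12.21, 12.32 and 12.44, with the wild type arrays spread over 1.95 and the mutant arrays over 0.23.

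Glutamate receptor-like genes, which encode calcium-permeable channels of wound and defence signalling, included 4 that rose and 1 that fell among 8 measured. GLR2.7 rose from 3.44, 3.64 and 3.51 to 5.75, 5.81 and 5.20 (adjusted p = 0.000159). GLR3.5, GLR1.4 and GLR3.3 rose by 1.02, 0.72 and 0.57, and GLR1.4 had adjusted p-values of 0.0511 and 0.0537 without csn5a-1 replicates 2 and 3. GLR3.6 was the gene that fell, from 5.99, 5.87 and 5.99 to 5.36, 5.26 and 5.15 (adjusted p = 0.00226), and 2 genes fell without Columbia replicate 3.

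Of 4 measured genes of aliphatic glucosinolate synthesis 2 fell and none rose. AOP3, an enzyme of glucosinolate side-chain modification, read 8.47, 7.48 and 8.59 in Columbia and 3.60, 3.62 and 3.69 in csn5a-1 (adjusted p = 3.65e-05). AT2G31790, listed as a glucosyltransferase of the same pathway, fell by 0.91 ± 0.21 (SE; adjusted p = 0.0128). Of 4 measured genes of the list on myrosinases and ER bodies, 2 fell and none rose. BGLU19, a beta-glucosidase gene, fell from 10.70, 11.01 and 11.01 to 6.50, 7.19 and 7.47, and NAI1, a transcription factor of ER body formation, by 0.44 ± 0.14 (SE; adjusted p = 0.0462), with an adjusted p of 0.0673 to 0.149 when an array other than Columbia replicate 3 was left out. PYK10 had a change of -0.16 (adjusted p = 0.292). Among the largest falls of symbol genes was that of the jacalin lectin gene JAL23, by 3.78 ± 0.16 (SE; adjusted p = 1.11e-05) to between 3.18 and 3.30.

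Most loci on the array carry no gene symbol in the reference table, and a smaller share of them than of the loci with a symbol passed the test. Of 11751 loci known here by AGI number alone, 1708 rose (14.5%) and 1734 fell (14.8%). Of 1535 loci with a symbol, 290 rose (18.9%) and 321 fell (20.9%). Changes of at least 16-fold were seen in 6 unnamed loci higher and 9 lower, and in 1 symbol gene higher and 7 lower.

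AT3G43740 was the unnamed locus with the largest rise. It read 3.14, 2.91 and 3.33 in Columbia, within the lowest 25% of levels, and 8.02, 8.66 and 8.37 in csn5a-1 (5.22 ± 0.19 SE; adjusted p = 6.54e-06). AT4G34950 rose from 4.87, 5.07 and 4.52 to 10.07, 9.81 and 9.99, a change of 35.2-fold with a span of 0.26 among the mutant arrays. AT1G72060 also rose, from 3.50, 3.89 and 3.47 to 9.96, 8.11 and 7.70. There csn5a-1 replicate 1 was the highest array, and the other mutant arrays were also far above wild type. AT2G16660, AT1G76960, AT1G63880, AT1G78460 and AT4G15700 completed the 8 largest rises, by 4.68, 4.19, 4.02, 3.98 and 3.97.

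The largest fall on a locus with 1 assigned gene was that of AT5G04380. It read 8.84, 9.82 and 10.19 in Columbia and 3.11, 3.10 and 3.06 in csn5a-1 (adjusted p = 1.44e-05), so that all mutant arrays lay in the lowest 25% of levels. The locus with the preceding number, AT5G04370 or NAMT1, fell as well, from 5.97, 6.06 and 6.24 to 3.56, 3.09 and 3.17. AT2G27420 fell from 9.85, 10.03 and 9.76 to 3.0, 5.48 and 5.05, with csn5a-1 replicate 1 lowest, and AT5G03090 from 8.97, 8.57 and 8.93 to 3.43, 3.89 and 4.11. AT3G56350, AT5G15360, AT5G07330 and AT1G52000 fell by 4.37, 4.21, 4.17 and 4.15.

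Some loci changed strongly with both group means above 5.93, the median of all levels, where array background matters less. AT2G25510 rose from 9.04, 8.27 and 8.56 to 12.44, 12.26 and 12.42, 13.5-fold (adjusted p = 1.90e-05). AT1G23130 rose from 7.50, 8.38 and 7.42 to 11.28, 11.23 and 11.29, and AT1G62480 from 8.18, 8.46 and 7.43 to 11.18, 11.12 and 11.09. In all 3 of these the mutant arrays were closer together than the wild type arrays. AT1G70820, AT3G22240 and AT3G05730 rose by 3.42, 3.13 and 3.05. On the lower side AT3G28220 fell from 11.83, 11.73 and 12.04 to 7.81, 8.73 and 8.38, and AT3G48460 from 10.93, 10.83 and 10.66 to 6.56, 7.36 and 7.53. AT2G28490 fell by 3.92 ± 0.14 (SE; adjusted p = 6.71e-06), and AT2G43590 by 3.70 ± 0.19 (SE; adjusted p = 1.77e-05).

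Neighbouring loci changed in the same direction in 13 places. A run was counted where at least 3 measured loci in a row along a chromosome changed at least 2-fold in the same direction with groups that did not overlap, and 7 runs were higher, 6 lower, with 42 loci in all and at most 5 in a run. On chromosome 4, 4 neighbouring loci rose by similar amounts: AT4G15700 from 3.33, 3.94 and 3.35 to 7.49, 7.68 and 7.38, and AT4G15680, AT4G15690 and AT4G15660 by 3.25, 3.24 and 3.23. On chromosome 1 AT1G72890, AT1G72900 and AT1G72920 rose by 1.86, 1.84 and 1.81. The last of these was the weakest call, with an adjusted p of 0.0175 that became 0.0686, 0.0552 and 0.0577 without Columbia replicate 2, Columbia replicate 3 and csn5a-1 replicate 2. On chromosome 5 AT5G45500 rose from 5.32, 5.66 and 4.61 to 8.47, 8.13 and 8.10 between AT5G45480 and AT5G45510, which rose by 1.40 and 1.19. On chromosome 3 AT3G60420 rose by 3.78 ± 0.14 (SE; adjusted p = 6.81e-06) beside AT3G60440 and AT3G60450, which rose by 1.46 and 1.00. Beside the 42 loci in runs stand 1358 loci, 10.2% of 13286, that changed at least 2-fold. How many such runs would arise from changes scattered along the chromosomes was not tested. Whether the probe sets of neighbouring loci share sequence was not tested either.

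The longest run lay on chromosome 3 and fell. It held 5 loci, AT3G21670, AT3G21690, SGP2, ICL and UGT71B1, with falls of -1.47, -1.58, -1.53, -2.87 and -1.04. The share of loci that rose was between 14.1% and 16.1% on chromosomes 1 to 5, and the share that fell was between 14.1% and 16.7%. In 262 windows of 50 neighbouring measured loci, between 0 and 27 loci changed, with a median of 16.

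The loci beside CSN5A, AT1G22920, differed among themselves. AT1G22890 read 5.79, 5.60 and 5.51 in Columbia and 10.12, 9.23 and 9.25 in csn5a-1, a rise of 14.9-fold (adjusted p = 4.21e-05). AT1G22900 rose from 4.46, 4.86 and 4.42 to 5.75, 5.94 and 5.79. AT1G22910, the locus next to the mutated gene, read 7.17, 6.99 and 6.73 in wild type and 6.91, 6.68 and 6.74 in the mutant (adjusted p = 0.360), and the groups overlapped. Of the 8 measured loci before CSN5A 3 rose and none fell, and of the 8 after it 1 rose and 1 fell.

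The list of seed storage and late seed genes had 6 measured members, of which 4 fell and 2 rose, against 15.5% and 15.0% of all loci. Late embryogenesis abundant proteins and oleosins protect the drying embryo and its oil bodies, and their transcripts normally decline after germination. M17 read 10.91, 10.42 and 10.42 in Columbia and 6.26, 6.57 and 6.25 in csn5a-1, 18.6-fold lower (adjusted p = 8.26e-06). LEA4-5 fell from 8.99, 9.10 and 9.20 to 5.01, 5.06 and 5.07, with a span of 0.06 among the mutant arrays. AT3G15670 fell by 3.87, and the oil body gene OLEO3 fell from 6.02, 5.29 and 6.09 to 3.71, 3.92 and 3.56. LEA18, AtLEA4-1 and LEA, which were not on the list and were named for the size of their change, fell by 3.67, 3.43 and 3.28. ATOEP16-2, a plastid outer envelope channel gene named by the same rule, fell by 3.80 ± 0.24 (SE; adjusted p = 4.57e-05).

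The median change of the list was -2.97. The 2 that rose were PAP85, a seed globulin gene, from 6.46, 6.25 and 6.99 to 7.76, 7.33 and 7.64, and M10, from 3.88, 3.77 and 3.89 to 4.54, 4.57 and 4.16. M10 had an adjusted p of 0.0583 without Columbia replicate 2 and 0.0589 without csn5a-1 replicate 2. ICL, isocitrate lyase of the glyoxylate cycle that turns seed oil into sugar, read 9.97, 9.32 and 10.66 in Columbia and 7.13, 6.95 and 7.26 in csn5a-1 (adjusted p = 0.000457).

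Cold-regulated genes moved in opposite directions. COR27, a gene under cold and clock control, rose from 3.88, 3.77 and 4.10 to 7.93, 7.88 and 7.64 (14.9-fold; adjusted p = 5.94e-06), and AT4G33980 rose from 3.35, 3.53 and 3.39 to 7.21, 6.26 and 5.91. COR15A, a protectant of chloroplast membranes in freezing, fell from 8.20, 8.54 and 8.41 to 5.99, 6.41 and 6.32. Its neighbour COR15B fell by 1.37 ± 0.20 (SE; adjusted p = 0.00173). These were all 4 measured members of the cold list.

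Sugar transporters of the SWEET family, which let sucrose and hexoses cross membranes along their gradient, included 7 that fell and none that rose among 14 measured. SWEET4 read 7.67, 7.70 and 7.34 in Columbia and 4.41, 4.52 and 4.77 in csn5a-1, 8.03-fold lower (adjusted p = 1.55e-05). SWEET13 fell from 7.13, 6.34 and 6.38 to 3.18, 3.92 and 3.92, and SWEET2 from 9.31, 9.26 and 8.95 to 7.80, 7.89 and 8.00. SWEET1, SWEET17, SWEET16 and SWEET11 fell by 0.95, 0.63, 0.49 and 0.41. The median change over the family was -0.34, beside -0.05 over all loci, and 4 rather than 7 passed without Columbia replicate 2 or without csn5a-1 replicate 2.

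SAG29, a senescence-associated transporter gene of the same family that the reference table lists under another name, fell further. It read 10.92, 11.12 and 10.69 in Columbia and 5.77, 5.91 and 5.94 in csn5a-1, 32.9-fold lower (adjusted p = 4.16e-06). DPE1, the plastid enzyme that rearranges the short glucan chains left by starch breakdown, changed the other way. Its levels were 5.24, 5.28 and 5.27 in wild type and 7.27, 7.37 and 7.35 in the mutant, a rise of 2.07 ± 0.09 (SE; adjusted p = 1.27e-05) with a span of at most 0.09 within a group.

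Cell wall genes were divided. XTH32 belongs to the xyloglucan endotransglucosylases, which cut and rejoin the hemicellulose that ties cellulose fibres. It fell from 10.81, 10.61 and 10.74 to 6.93, 7.43 and 7.39, 11.1-fold (adjusted p = 1.20e-05). XTH19 rose from 6.68, 7.89 and 6.34 to 10.35, 8.97 and 8.89, and XTH16 from 6.48, 6.39 and 6.17 to 9.46, 7.81 and 7.78. In both, csn5a-1 replicate 1 was the highest array, and the other mutant arrays were above all wild type arrays. Of 9 measured XTH genes 2 rose and 1 fell, and the number that rose was 4 without csn5a-1 replicate 2 and the number that fell 2 without Columbia replicate 1.

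The TBL family, whose members acetylate wall polysaccharides, had 5 genes that rose and 5 that fell among 22. TBL26 fell by 3.29 ± 0.19 (SE; adjusted p = 3.34e-05), from at least 7.75 to at most 5.0, while TBL45 rose by 1.20 ± 0.17 (SE; adjusted p = 0.00150). The number that fell was 3 without Columbia replicate 1, Columbia replicate 2, csn5a-1 replicate 2 or csn5a-1 replicate 3. PRX52, a peroxidase gene of lignin formation, fell from 8.13, 7.45 and 7.70 to 3.38, 3.75 and 3.58, a mean within the lowest 25% of levels, and GUT2, a xylan synthesis gene, from 7.01, 6.29 and 6.11 to 4.86, 5.24 and 5.23. The endoglucanase genes GH9B8 and GH9C2 fell by 2.25 and 1.62. The expansin gene EXPA8 read 9.24, 8.61 and 9.49 in Columbia and 5.70, 7.61 and 7.51 in csn5a-1, with replicate 1 lowest of all (adjusted p = 0.0136).

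Of 7 measured nuclear genes of the antenna and photosystem list 1 rose and 2 fell. LHCB4 proteins are minor antenna proteins of photosystem II. LHCB4.3 rose from 8.11, 6.70 and 6.71 to 9.32, 9.14 and 9.27 (adjusted p = 0.00385), LHCB4.2 fell from 12.38, 12.07 and 12.14 to 11.18, 11.42 and 11.35 (adjusted p = 0.00171), and LHCB4.1 read between 12.69 and 12.94 on all 6 arrays (adjusted p = 0.372). The small photosystem II gene PSBY fell by 0.47 ± 0.11 (SE; adjusted p = 0.0157).

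Of 4 measured genes of the chlorophyll and haem pathway 1 rose and 2 fell. PORB, which makes chlorophyllide in light, read 7.40, 7.23 and 7.65 in Columbia and 9.07, 9.43 and 9.70 in csn5a-1, a rise of 3.93-fold (adjusted p = 0.000255). GSA1, an enzyme of aminolevulinate synthesis, fell by 0.51 ± 0.13 (SE; adjusted p = 0.0199; 0.0589 without csn5a-1 replicate 2). CHLM, a methyltransferase of chlorophyll synthesis, fell by 0.35 ± 0.10 (SE; adjusted p = 0.0286), with an adjusted p of 0.0553 to 0.0854 when an array other than csn5a-1 replicate 1 was left out. The 2 measured genes of light signalling went in opposite directions. FHL, which with its homologue carries phytochrome A into the nucleus, rose from 2.96, 3.19 and 3.42 to 6.07, 4.23 and 4.48. Its adjusted p was 0.0205, and it became 0.0652 without Columbia replicate 1 and 0.0653 without Columbia replicate 2. HYH, a bZIP factor of light responses, fell by 1.12 ± 0.32 (SE; adjusted p = 0.0310), with an adjusted p of 0.0513 to 0.108 when an array other than Columbia replicate 1 or csn5a-1 replicate 2 was left out. CHIL, a chalcone isomerase-like protein that aids flavonoid synthesis, fell from 9.65, 9.46 and 9.60 to 6.47, 7.18 and 7.27 (6.04-fold; adjusted p = 0.000136). Of 9 measured flavonoid genes 3 fell and none rose, and 1 fell without Columbia replicate 2.

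Transcripts encoded by the plastid genome depended on which mutant array was read. The plastid genome encodes core subunits of both photosystems, of the ATP synthase and of the plastid ribosome and NDH complex. Of 69 measured plastid transcripts 10 were lower (14.5%) and 2 higher (2.90%), beside 15.5% and 15.0% of all loci. Their median change was -0.44. Their median level by array was 9.65, 9.70 and 9.57 in Columbia and 9.91, 8.77 and 8.09 in csn5a-1. In csn5a-1 replicates 2 and 3, 47 of the 69 were below the lowest Columbia array, whereas in csn5a-1 replicate 1, 32 were above the highest Columbia array and 16 below the lowest. Without csn5a-1 replicate 1, 36 were lower, 1 was higher and the median change was -0.84. The number lower was 5 without Columbia replicate 2, 6 without csn5a-1 replicate 2 and 6 without csn5a-1 replicate 3, and the number higher was 0 without Columbia replicate 1 and 1 without Columbia replicate 2, Columbia replicate 3 or csn5a-1 replicate 2.

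Some plastid transcripts were low on all mutant arrays. psbK, a small photosystem II subunit, read 11.99, 12.53 and 11.55 in Columbia and 9.79, 9.60 and 9.43 in csn5a-1, a fall of -2.42 ± 0.24 (SE; adjusted p = 0.000334). The adjacent genes psaJ, rpl33 and rps18, of photosystem I and the plastid ribosome, fell by 2.25, 1.93 and 1.81 as the 1 run of plastid loci. psbA, the D1 reaction centre protein, read 10.50, 10.02 and 9.48 in wild type and 9.52, 8.45 and 8.00 in the mutant (adjusted p = 0.0381), so that replicate 1 lay inside the wild type range, and the adjusted p was 0.105 to 0.114 when an array other than Columbia replicate 3 or csn5a-1 replicate 1 was left out.

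Others took both directions within the mutant. psbD, the D2 protein, read 6.95, 6.82 and 5.80 in Columbia and 8.38, 4.79 and 4.59 in csn5a-1, which gave -0.61 with an adjusted p of 0.668 over all arrays and -1.84 ± 0.32 (SE; adjusted p = 0.00456) without replicate 1. rbcL, the large subunit of Rubisco, read 11.88, 12.01 and 10.82 against 12.37, 10.92 and 10.11 and did not pass in either fit (adjusted p = 0.597 and 0.0731). The 2 higher transcripts were the neighbouring ribosomal protein genes rpl22, from 9.65, 9.97 and 9.92 to 11.54, 10.69 and 10.54 (adjusted p = 0.0518 without Columbia replicate 1), and rps3, which rose by 0.47 ± 0.15 (SE; adjusted p = 0.0464). For rps3 the adjusted p was 0.0634 to 0.119 when an array other than csn5a-1 replicate 3 was left out. No ATP synthase transcript of 6 passed the test over all arrays, and 2 fell without csn5a-1 replicate 1, atpI by 1.93 ± 0.17 (SE; adjusted p = 0.000208) and atpF by 1.67 ± 0.39 (SE; adjusted p = 0.0157).

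The 5 loci with the widest range over the csn5a-1 arrays were all plastid transcripts, rpl20, cemA, ndhE, psbD and petL, with ranges of 4.18, 4.03, 3.81, 3.79 and 3.76. Each was highest in replicate 1. Over the Columbia arrays petL, AT2G22510, psaC, psbB and ndhE ranged most widely, by 2.93, 2.73, 2.70, 2.65 and 2.57, and none of the 8 loci in these sets passed the test over all arrays.

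**Figure D3:**
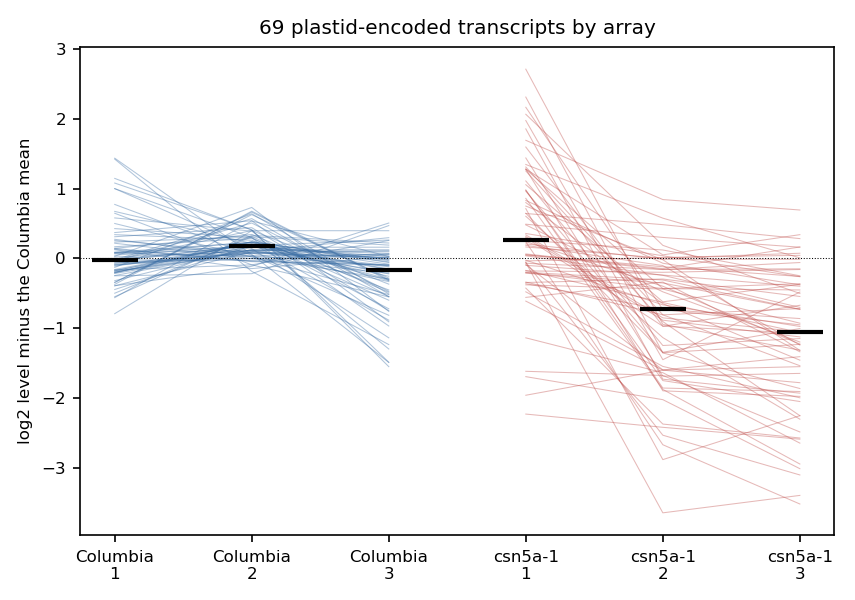
Log2 RMA level of each of 69 plastid-encoded transcripts minus its Columbia mean (vertical axis) on the 6 arrays (horizontal axis), with 1 line per transcript within a group and a bar at the median. csn5a-1 replicate 1 has a median of 0.26, with 25 of the 69 transcripts below the Columbia mean. Most lines run down from it to replicates 2 and 3, among them some that start below that mean.

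Genes of cell division and chromatin changed by isoform. Aurora kinases act on chromosomes and the cell plate in mitosis. AUR1 rose from 5.59, 5.55 and 5.53 to 6.85, 6.69 and 6.61 and AUR3 from 4.68, 4.36 and 4.43 to 5.88, 5.87 and 5.69, while AUR2 fell from 7.61, 7.63 and 7.49 to 5.73, 5.97 and 6.25. The adjusted p was at most 0.000276 for these 3 genes. PRL, the MCM7 subunit of the replicative helicase, fell by 1.02 ± 0.13 (SE; adjusted p = 0.00103). ATMND1, which acts with HOP2 in meiotic recombination, read 3.55, 3.83 and 3.76 in Columbia and 6.13, 6.52 and 6.16 in csn5a-1 (5.86-fold; adjusted p = 2.74e-05). Of 7 measured histone genes 3 rose and none fell. HTB2 and HTB11, which encode histone H2B, rose by 1.53 and 1.06, and HTR12, the centromeric histone H3, by 0.86, whereas HTB1 and HTB4 had changes of -0.03 and -0.16 (adjusted p = 0.919 and 0.389).

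Few genes of the signalosome and of cullin ligases had a probe set assigned to them alone. CSN5B read 4.61, 4.47 and 4.37 in Columbia and 4.38, 4.88 and 5.19 in csn5a-1 (0.34 ± 0.20 SE; adjusted p = 0.248), and CUL4 read 8.96, 9.64 and 9.55 against 9.61, 9.53 and 9.69. The groups overlapped for both genes. U-box ubiquitin ligases divided into 3 that rose and 3 that fell among 9. PUB19 fell from 8.42, 8.39 and 8.38 to 5.41, 6.60 and 6.45 and PUB26 by 1.60, while PUB24 rose by 1.11. Of the ubiquitin proteases UBP22, which removes ubiquitin from histone H2B, rose by 0.94 ± 0.10 (SE; adjusted p = 0.000552) and UBP16 fell by 0.69 ± 0.10 (SE; adjusted p = 0.00171).

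VPS genes named for vacuolar protein sorting, many of them subunits of the ESCRT complexes that sort ubiquitinated membrane proteins, rose in 7 of 10 cases and fell in none. The 15.0% of all loci that rose stands beside this 70.0%. VPS20.1 read 4.94, 5.22 and 5.52 in Columbia and 7.06, 6.94 and 6.91 in csn5a-1, a rise of 3.34-fold (adjusted p = 0.000216). VPS24.1 rose from 6.84, 7.47 and 7.66 to 8.65, 8.49 and 8.22, and VPS2.1 by 0.88. All 3 encode ESCRT-III subunits. The median change of the family was 0.51, and 4 of 10 passed without csn5a-1 replicate 2. Of 8 genes with an ATG name 2 rose, ATG8H by 1.08 ± 0.19 (SE; adjusted p = 0.00474) and ATG8F by 0.55 ± 0.12 (SE; adjusted p = 0.0104), both of the family that marks autophagosomes. The NET genes, which tie actin filaments to membranes, included 5 of 10 that rose: NET4B, NET3A, NET1D, NET2D and NET1C, by 1.13, 0.97, 0.75, 0.63 and 0.41. Their number was between 1 and 3 when an array other than csn5a-1 replicate 3 was left out.

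**Figure D4:**
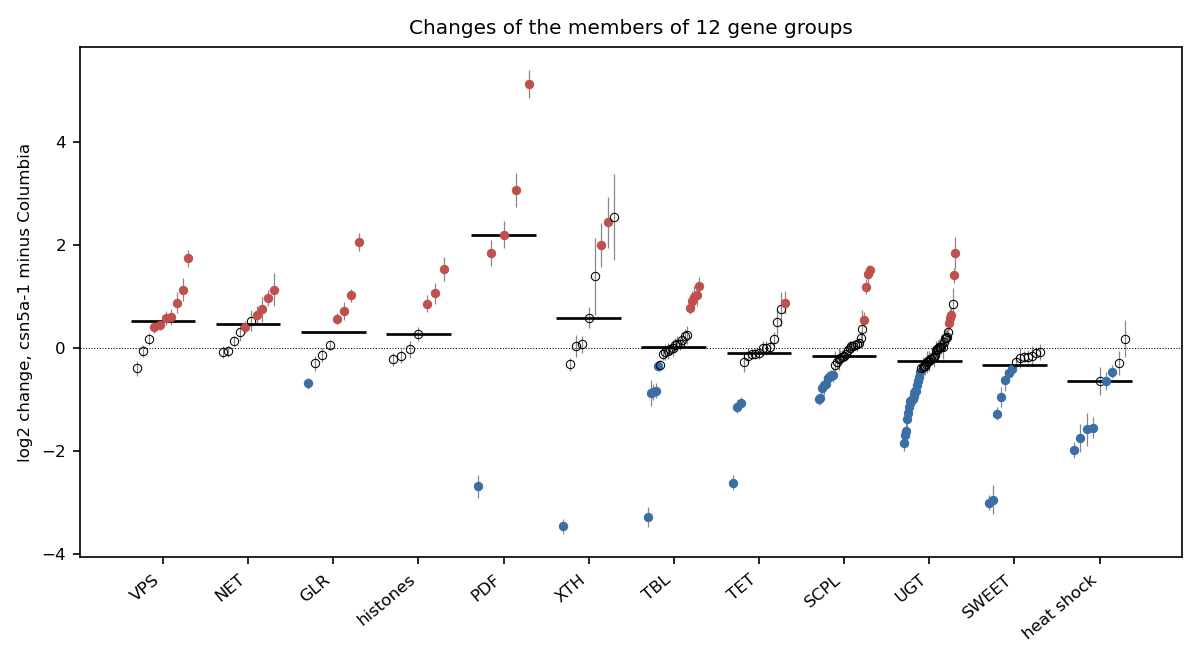
Log2 change, csn5a-1 minus Columbia, of every measured member of 12 gene groups, each as a point with its SE. Red members rose, blue members fell, open members did not pass the test, and bars are group medians; VPS and NET have no blue point, SWEET and heat shock genes have no red point, and PDF, XTH, TBL and UGT have both.

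Of 10 measured genes of the auxin list 1 rose and 3 fell. LBD16, a transcription factor of lateral root initiation that auxin induces, fell from 6.10, 5.79 and 6.02 to 4.33, 4.53 and 4.73 (adjusted p = 0.000334). GH3.5, listed under the symbol WES1, and IAA30 fell by 0.82 and 0.31, and IAA29, a transcriptional repressor gene, rose by 0.68 ± 0.18 (SE; adjusted p = 0.0214). The last 3 genes lost the call without at least 3 of the 6 arrays left out in turn. Of 2 measured genes of the cytokinin list 1 rose and 1 fell. RR16, a response regulator that cytokinin induces, rose from 3.96, 4.12 and 3.79 to 5.14, 5.65 and 5.13, and ARR15, of the same type, fell by 0.42 ± 0.12 (SE; adjusted p = 0.0329), with an adjusted p of 0.0650 to 0.105 when an array other than Columbia replicate 3 was left out.

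Of 4 measured genes of the gibberellin list 1 rose and 2 fell. The receptor gene GID1C fell by 0.55 ± 0.11 (SE; adjusted p = 0.00844), while GID1A, another receptor gene, rose by 0.40 ± 0.10 (SE; adjusted p = 0.0196; 0.0658 without Columbia replicate 3 and 0.0797 without csn5a-1 replicate 2). SLY1, an F-box gene of gibberellin signalling, fell by 0.41 ± 0.12 (SE; adjusted p = 0.0312), with an adjusted p of 0.0545 to 0.0772 when an array other than csn5a-1 replicate 2 was left out. The 1 measured gene of the ethylene list, EIN3, the main transcription factor of ethylene signalling, rose by 0.59 ± 0.15 (SE; adjusted p = 0.0186).

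Glycosyltransferases of the UGT family, which attach sugars to hormones and phenolic compounds, fell more often than they rose. Of 47 measured, 16 fell (34.0%) and 5 rose (10.6%), with a median change of -0.26. UGT74D1, which acts on auxin, fell from 9.49, 9.80 and 9.32 to 7.74, 7.82 and 7.50 (3.61-fold; adjusted p = 0.000149). UGT84A1, which acts on hydroxycinnamic acids, fell from 6.12, 6.17 and 5.75 to 4.49, 4.29 and 4.16, and UGT72B3 by 1.61. UGT85A2 was the largest rise, from 6.89, 6.81 and 6.70 to 9.40, 8.54 and 8.02. The number that rose was 3 without csn5a-1 replicate 1, csn5a-1 replicate 2 or Columbia replicate 3. Serine carboxypeptidase-like genes fell in 9 and rose in 4 of 29 cases. SCPL49 rose from 8.35, 8.35 and 8.31 to 9.78, 9.91 and 9.89 (adjusted p = 4.49e-05), and scpl25 fell from 8.37, 8.30 and 8.53 to 7.48, 7.38 and 7.35.

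The CYP71B cytochrome P450 genes, of which many lie beside each other on chromosome 3, included 3 that rose and 4 that fell among 19. These shares of 15.8% and 21.1% stand beside 15.0% and 15.5% of all loci, and the median change was -0.09. CYP71B23 rose from 4.11, 4.18 and 4.53 to 6.88, 6.88 and 6.84, 6.03-fold (adjusted p = 1.91e-05), and CYP71B24 by 2.33 ± 0.20 (SE; adjusted p = 0.000195). CYP71B26 rose by 1.01 ± 0.28 (SE; adjusted p = 0.0297), with an adjusted p of 0.0541 to 0.0897 when an array other than csn5a-1 replicate 1 was left out. CYP71B34, CYP71B6, CYP71B29 and CYP71B37 fell by 0.91, 0.59, 0.52 and 0.47, of which 2 passed without Columbia replicate 3 or csn5a-1 replicate 2. Among transcription factor genes UPB1, a bHLH factor that sets the balance of reactive oxygen in the root tip, rose from 5.49, 5.57 and 4.84 to 8.47, 9.04 and 8.73, 10.9-fold. SBT4.12, a subtilisin-like protease gene, rose from 5.62, 5.25 and 4.29 to 7.69, 6.96 and 7.16. GIS, a zinc finger factor of trichome formation, fell from 8.44, 8.05 and 8.03 to 4.20, 5.47 and 5.49.

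Heat shock genes fell or did not pass. Of 9 measured 6 fell, with a median change of -0.64, and 4 fell without csn5a-1 replicate 1. Hop3, a co-chaperone that links HSP70 and HSP90, fell from 6.24, 6.84 and 6.72 to 4.65, 4.57 and 4.63 (adjusted p = 0.000141), HSA32, needed for lasting heat tolerance, from 7.57, 8.13 and 7.94 to 6.03, 6.28 and 6.67, and AT1G53540 fell by 1.75. Fes1B, a regulator of HSP70 that was not on that list, rose from 3.95, 3.84 and 4.51 to 6.16, 6.28 and 6.50. In the redox list of 4 measured genes GR1, glutathione reductase, and CCS, the copper chaperone of superoxide dismutase, fell by 0.62 and 0.68, and GSTU25, a tau class glutathione transferase, rose by 1.32 ± 0.14 (SE; adjusted p = 0.000404). STZ, a zinc finger factor of stress responses, rose by 0.97 ± 0.27 (SE; adjusted p = 0.0277), with an adjusted p of 0.0822 to 0.0965 when an array other than Columbia replicate 1 or csn5a-1 replicate 1 was left out.

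Of 5 measured genes of the list on alternative respiration and mitochondrial stress 2 rose and 1 fell. AT2G21640 read 5.42, 5.41 and 5.38 in Columbia and 7.82, 8.42 and 8.34 in csn5a-1 (6.92-fold; adjusted p = 3.43e-05). NDB2, an alternative NADH dehydrogenase, fell from 8.14, 8.27 and 7.87 to 6.90, 6.70 and 6.56, while its homologue NDB4 rose by 0.48 ± 0.12 (SE; adjusted p = 0.0162; 0.0590 without Columbia replicate 2 and 0.0668 without csn5a-1 replicate 2). PYE, a bHLH factor of the iron deficiency response, fell from 8.46, 8.61 and 8.62 to 5.80, 7.33 and 7.22 (adjusted p = 0.00937), with csn5a-1 replicate 1 lowest.

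Of the probe sets for which the annotation gives no gene, 8730 in number, 1548 were higher (17.7%) and 1695 lower (19.4%). The 2 with the largest rise were 266385_at, from 5.96, 4.98 and 5.05 to 10.23, 12.07 and 12.00, and 256766_at, from 4.88, 4.04 and 5.06 to 9.62, 11.05 and 11.17. In both the csn5a-1 replicate 1 array was the lowest of the mutant arrays and still above 9. The 2 with the largest fall were 261431_at, by 6.32 ± 0.36 (SE; adjusted p = 2.92e-05), and 265058_s_at, from 11.65, 11.32 and 11.71 to 5.18, 6.17 and 5.85.

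Genes that set csn5a-1 replicate 1 apart from the other mutant arrays were mostly higher in it. Among 13217 nuclear loci 238 were at least 2-fold above the mean of the other csn5a-1 arrays and 56 at least 2-fold below it. Of the 238, 70 rose, 5 fell and 163 did not pass over all arrays, and without replicate 1 the numbers that rose and fell were 89 and 41. In 98 of the 238 replicates 2 and 3 both lay inside or below the range of the Columbia arrays. These loci were picked by the spread of the mutant arrays, so their values are a description.

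Wall-loosening and touch-linked genes were among the symbol genes furthest above. XTH18 read 6.27, 6.35 and 5.77 in Columbia and 10.93, 7.54 and 7.55 in csn5a-1, which gave an adjusted p of 0.0533 over all arrays and a rise of 1.41 ± 0.18 (SE; adjusted p = 0.00123) without replicate 1. The expansin-like gene EXLA1 read 7.03, 7.34 and 7.21 against 11.71, 8.62 and 8.56. Its rise was 2.44 ± 0.77 (SE; adjusted p = 0.0453) over all arrays and 1.40 ± 0.13 (SE; adjusted p = 0.000274) without replicate 1, and the adjusted p was 0.112, 0.107 and 0.0991 without Columbia replicates 1, 2 and 3. EXLA2 read 5.96, 5.63 and 5.55 against 8.30, 5.44 and 5.28, so its change of 0.62 became -0.36 without replicate 1, and neither passed (adjusted p = 0.559 and 0.127).

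The calmodulin-like gene CML38 read 3.91, 4.10 and 4.18 in Columbia and 7.17, 5.37 and 4.85 in csn5a-1, and WRKY22, a defence transcription factor, read 5.65, 5.19 and 5.42 against 7.63, 5.46 and 5.14. CML38 was above wild type on all mutant arrays and WRKY22 on 1. The adjusted p of CML38 was 0.0393, and it became 0.0610 to 0.103 when a Columbia array or csn5a-1 replicate 2 was left out. HAT2, a homeodomain-leucine zipper gene that auxin and shade induce, read 8.07, 7.96 and 8.62 against 8.66, 6.81 and 7.11 and fell by 1.26 ± 0.21 (SE; adjusted p = 0.00372) without replicate 1. BHLH101, a factor of iron uptake, was the symbol gene furthest below the other mutant arrays, at 9.33, 9.84 and 9.88 in Columbia and 6.89, 9.07 and 9.10 in csn5a-1. Levels of AT1G50040, AT1G77640 and AT3G19680, the unnamed loci furthest above, were 8.67, 8.26 and 10.53 in replicate 1 and at most 5.48, 5.22 and 7.50 in replicates 2 and 3.

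**Figure D5:**
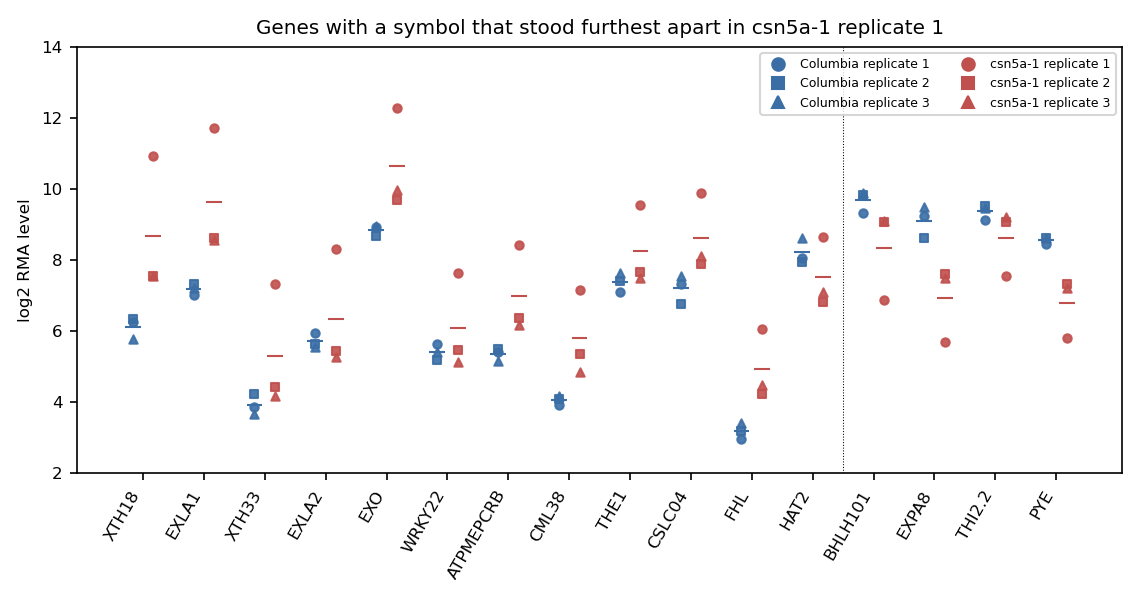
Log2 RMA level on each array of the 12 symbol genes furthest above (left of the dotted line) and the 4 furthest below (right) in csn5a-1 replicate 1 relative to the other csn5a-1 arrays. Circles, squares and triangles mark replicates 1, 2 and 3, blue is Columbia, red is csn5a-1 and lines are group means; for every gene drawn the red circle lies apart from the red square and triangle, which lie close to each other.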

How the data were processed

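Total RNA of whole seedlings was labelled as biotinylated cRNA and hybridised to Affymetrix arrays, per the labels' protocols. The deposited values are log2 levels that the authors computed with RMA, per the submitters' processing notes; its version is not given in the sources used here. Of 22810 probe sets 64 controls were left out. No scanner files were used. Precision is limited by 3 arrays a group.

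The 22746 remaining probe sets were fitted with limma 3.58.1 in R 4.3.3 (lmFit and eBayes, group means, no covariate, two-sided), with Benjamini-Hochberg adjustment and a threshold of 0.05. On simulated data with independent normal noise this found 93 of 100 planted changes of 1 and 100 of 100 of 2, with 18 calls among unchanged probe sets. All other probe sets were left unchanged there, whereas 32.9% passed on the real arrays. The simulated rates were thus not shown to hold for the real arrays. Genes were named through the platform annotation and the RefSeq table of TAIR10.1, used for names and neighbour order only. A locus is represented by its probe set of highest mean level over the 6 arrays. Probe sets that the annotation assigns to several genes, 503 in number, were named for none. A gene without a probe set of its own in the annotation counts as not measured.

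The comparison, the 46 gene and marker lists, the symbol families of at least 8 members and the tests were chosen with earlier results of these data known, so lists are described by counts and medians. Of 962 listed loci 153 were measured, and 42 lists had a measured member. Named genes are the 20 largest changes each way among symbol genes with groups that do not overlap, the 8 largest each way among loci without a symbol and among those with both means above the median of all levels, up to 4 per list or family, the widest-ranging genes and 2 unnamed probe sets each way. The PDF and CYP71B families, runs of neighbours, CSN5A neighbours, genes of csn5a-1 replicate 1 and further family members were chosen after their values were seen. Alternatives were a spread model with an intensity trend, array weights, quantile normalization, median centring, a filter on dim probe sets, a test against a minimum change, a replicate block and leaving out each array. Some genes and families that this rule names are not reported here.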

Additional observations from a re-analysis of the deposited data

How the results depend on the processing

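The count of 7474 called probe sets was 7510 with an intensity trend in the spread model, 10204 with array weights, 7438 after quantile normalization, 7414 after median centring and 7262 without the dimmest 25% of probe sets. A test against a log2 change of 0.5 left 2254 (1080 higher, 1174 lower). Leaving out 1 array gave 5421 to 7221 calls, 2602 to 3578 higher and 2819 to 3643 lower, lowest without Columbia replicate 2, and 2478 to 2769 of at least 2-fold. With the replicate number as a block 6925 were called (3406 higher, 3519 lower), of which 6514 shared the call and direction of the fit without it. The numbers were not taken as pairs, since same-numbered deviations had low correlations, of 0.0448, 0.0701 and 0.0491. Those of differently numbered arrays were between -0.098 and 0.0638. Every array but Columbia replicate 3 still correlated best with its own number, and that array did so with csn5a-1 replicate 2. Of 196 called genes named here none reversed. The call was kept by 195 with the intensity trend, 194 with array weights, 191 after quantile normalization, 196 after median centring, all 195 that the dim filter retained, 132 against a minimum change and 181 with the block. Without a given array 13 to 29 lost it, and 35 lost it without at least 1 array. Among genes that did not pass, the direction turned with an array left out, with changes between -0.36 and 1.15 for EXLA2, -1.84 and 0.06 for psbD, -1.06 and 0.07 for rbcL, -0.01 and 0.10 for AT5G07230, -0.12 and 1.13 for WRKY22, -0.18 and 0.10 for HTB1, -0.88 and 0.48 for AT2G22510, -1.13 and 0.88 for cemA and -1.61 and 0.48 for rpl20. With array weights the change was 0.22 for HTB1 and -0.98 for cemA, and after quantile normalization 0.00 for HTB1; the cause was not tested. Counts per family without csn5a-1 replicate 1 and calls of the loci that stand apart in it were added after seeing the data. The search of promoters for motifs was not run. Low levels, where RMA values lie close to background, limit folds of genes such as THI2.1.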

Other observations

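Aldehyde dehydrogenase genes, whose products detoxify aldehydes or use them in metabolism, included 3 that rose and 1 that fell among 8 measured. ALDH6B2, a mitochondrial enzyme of branched-chain amino acid breakdown, read 8.56, 8.65 and 8.82 in Columbia and 10.20, 9.81 and 9.95 in csn5a-1, and rose by 1.31 ± 0.13 (SE; limma adjusted p = 0.000398). ALDH10A8 and ALDH10A9 rose by 0.70 and 0.46, and 2 genes fell without csn5a-1 replicate 1. ALDH11A3 fell from 11.74, 11.76 and 11.83 to 10.67, 10.69 and 10.58, with spans of at most 0.11 within a group. Other beta-glucosidase genes than BGLU19 also changed: BGLU44 rose from 7.42, 7.52 and 7.57 to 9.69, 9.76 and 9.55 (adjusted p = 1.60e-05), BGLU25 rose by 1.25 and BGLU40 fell by 0.95.

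Tetraspanins, membrane proteins that organise microdomains, included 3 that fell and 1 that rose among 15. TET4 read 6.67, 6.66 and 6.42 in Columbia and 3.90, 4.21 and 3.78 in csn5a-1, 6.16-fold lower (adjusted p = 2.45e-05), and TET2 and TET3 fell by 1.14 and 1.07. TET10 rose by 0.88 ± 0.22 (SE; adjusted p = 0.0195), with an adjusted p of 0.0615 without Columbia replicate 1.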
